A study of Homo sapiens with 24 samples.

Results

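SH-SY5Y neuroblastoma cells treated with TEPA together with interferon gamma were compared with the same cells treated with interferon gamma alone, both for 24 h. The comparison uses 6 of the 24 libraries of the series, 3 labelled TEPA plus interferon and 3 labelled interferon, chosen by treatment label and without regard to any measured value. The cells are an established human line, and both groups carry interferon gamma, so what separates them is TEPA. Doses and passage numbers are not given in the labels. The labels call the libraries replicates and do not say whether they came from separate cultures. The p-values below therefore measure only the spread between libraries of the same group, estimated over all 24 of the series. A further 3 libraries of untreated cells and 3 of cells given TEPA without interferon, all at 24 h, show what TEPA did alone, and 3 with Dextran-Catechin (DC, the other chelator of the series) plus interferon serve as a second reference.

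TEPA is a polyamine that binds copper tightly and is used in cells as a copper chelator; open-chain polyamines of this kind can also bind zinc. Cells sense zinc through the transcription factor MTF1, which binds metal response elements and raises metallothioneins, small cysteine-rich proteins that buffer zinc and copper, and SLC30A1, the exporter that moves zinc out across the plasma membrane. Interferon gamma signals through the kinases JAK1 and JAK2 and induces IRF1, guanylate-binding proteins, antigen presentation and, in many tumour cells, the checkpoint ligand CD274 (PD-L1). SH-SY5Y is an adrenergic-type line that is widely used as a model of neuroblastoma, a tumour of the sympathetic lineage.

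Each library held between 27664340 and 31986212 gene-assigned reads in the interferon group and between 28706719 and 31987565 with TEPA added, and 14654 genes passed the filter on low counts. Levels are given as CPM (counts scaled to the same library total), which are not divided by transcript length, and differences as log2 fold changes with their standard error (SE). A gene is called when its Benjamini-Hochberg adjusted p from edgeR's quasi-likelihood test is under 0.05. The interferon label was borne out by its targets: IRF1 lay between 211 and 420 CPM in the 6 libraries, against 2.01 to 2.43 CPM in the untreated ones. The line's sympathetic markers HAND2, GATA3, ISL1, DBH and CHGA were all present, but TH, the rate-limiting enzyme of catecholamine synthesis, was between 0 and 0.0361 CPM. Markers of leukocytes (5 listed, summed level 0.172 to 0.471 CPM in the 6 libraries) and epithelium (4 listed, 0.25 to 0.904 CPM) were low in both groups, with CD3E at 0. Of the 5 Schwann cell markers, summed at 72.4 to 77.5 CPM with interferon and 60.8 to 65.3 CPM with TEPA, SOX10 was at most 0.101 CPM, and nearly all of the sum was PMP22, which was called lower (log2 fold change -0.27, SE 0.07, adjusted p = 0.0407 by edgeR). The 10 markers of fibroblasts and endothelium summed to 573 to 705 CPM with interferon and 601 to 757 CPM with TEPA, with COL3A1 at 281 to 406 CPM and LUM at 168 to 192 CPM, PECAM1 at 0 and none called. The part of these markers in the results was not tested.

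TEPA changed 279 genes on the interferon background, 1.9% of those tested, of which 111 rose (0.757%) and 168 fell (1.15%). Changes of 2-fold or more were few, 22 up and 28 down, and the median log2 fold change over all genes was -0.02. Zinc and metal genes and targets of the tumour suppressor p53, the transcription factor that halts the cell cycle or triggers death after stress, were among the most changed, and genes of cholesterol and fatty acid synthesis were among those that fell. The gene lists used below were chosen with earlier results of these data known, so their shares of called genes are descriptions only. In 278 of the 279 the 3 libraries with TEPA did not overlap the 3 without, whereas 3338 of all 14654 genes (22.8%) had this property. Of the 279, 97 were called in all of the 6 fits that each left out 1 library, 43 up and 54 down. Single fits kept between 121 and 202 of the 279. A fit without 1 library also has less power, so these fits do not separate that from a dependence on single libraries. The spread behind each test is estimated over all 24 libraries; estimated from these 6 alone it left 121 calls, 84 of them among the 279. When the trend of each library's levels with the genes' GC content was removed first, 1941 genes (13.2%) were called, 1101 higher (7.51%) and 840 lower (5.73%), 257 of them among the 279.

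**Figure D1:**
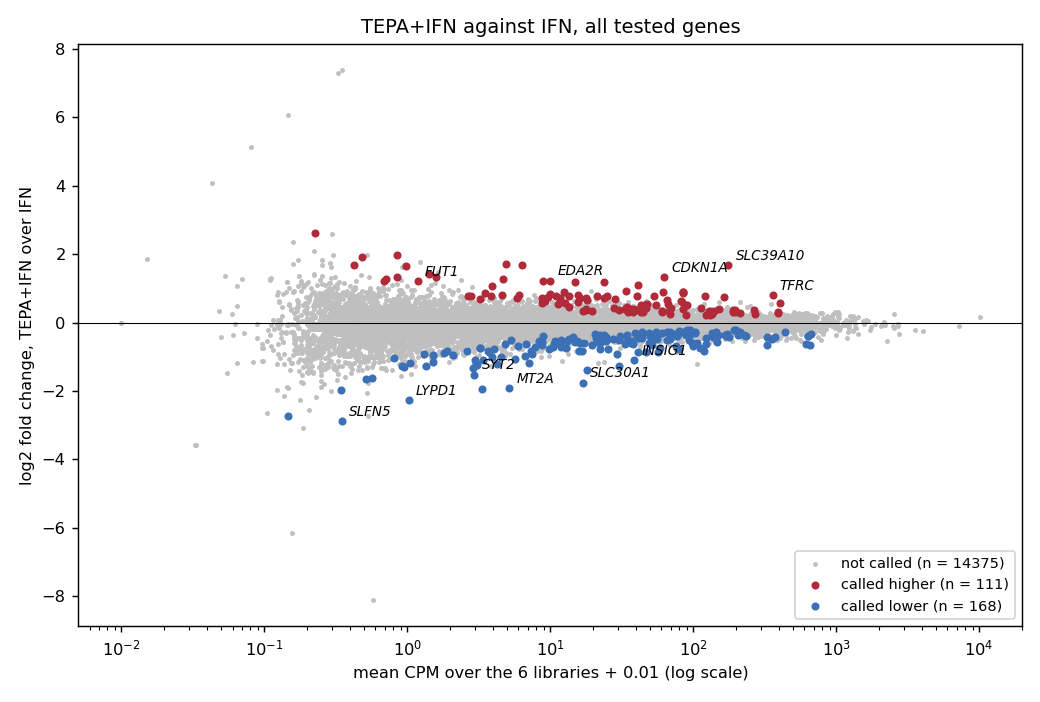
Log2 fold change of TEPA plus interferon over interferon alone (vertical axis) against mean CPM over the 6 libraries, on a log scale with 0.01 added (horizontal axis), for the 14654 tested genes. Red points are the 111 genes called higher and blue points the 168 called lower; grey points below about 1 CPM spread widely without being called.

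Among genes of zinc handling, an importer and an exporter moved in opposite directions. SLC39A10 (ZIP10, GENCODE 29 gene ENSG00000196950.13 at chr2:195575977-195737702, plus strand, GRCh38) brings zinc into the cell. Its level was 79.4, 74.2 and 95.2 CPM in the 3 interferon libraries and 281, 255 and 274 CPM when TEPA was added. The groups were far apart, and the log2 fold change was 1.68 (SE 0.18, adjusted p = 7.57e-05 by edgeR). SLC30A1 (ZnT1, ENSG00000170385.9 at chr1:211571568-211578742, minus strand), the zinc exporter, went from 25.1, 25.7 and 26.8 CPM to 8.6, 7.33 and 7.44 CPM. Its log2 fold change was -1.75 (SE 0.18, adjusted p = 7.57e-05), and both genes were called in each of the 6 fits without 1 library.

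The metallothionein MT2A (ENSG00000125148.6 at chr16:56608199-56609497, plus strand) fell as well. It lay at 9.44, 10.2 and 4.72 CPM with interferon and at 1.5, 2.99 and 2 CPM with TEPA added (log2 fold change -1.92, SE 0.45, adjusted p = 0.0302). The lowest interferon library is the third, and MT2A was called in only 1 of the 6 fits that left out a library. MT1F had 21 reads over the 3 interferon libraries and 3 with TEPA and was called (log2 fold change -2.72, SE 0.6, adjusted p = 0.0212), in 2 of 6 such fits. MT1X had 78 and 12 reads and missed the threshold (log2 fold change -2.73, SE 0.77, adjusted p = 0.0769). MT1E and MT1M had 4 reads each with interferon and 0 with TEPA, too few to read, and the other 5 metallothioneins of the list were not tested because their counts were too low. Metallothionein genes are near-identical copies, so the share of reads assigned to each is uncertain.

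The upstream sequences of these 4 zinc and metal genes are shown because MTF1 binds metal response elements upstream of genes. Each run is the 250 bases before the RefSeq start in GRCh38.p14, written 5′ to 3′ on the gene's own strand, with capitals marking the core of the metal response element, TGCACNC or TGCGCNC, read on either strand; the cores differ in 1 letter and cannot both match at the same place on the same strand.
MT2A, chr16:56608334-56608583, plus strand: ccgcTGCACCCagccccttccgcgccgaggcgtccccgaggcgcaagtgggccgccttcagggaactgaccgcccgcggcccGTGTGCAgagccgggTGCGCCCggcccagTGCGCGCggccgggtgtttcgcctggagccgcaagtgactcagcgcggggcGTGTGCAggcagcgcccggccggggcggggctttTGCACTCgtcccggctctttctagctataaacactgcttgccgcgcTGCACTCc
MT1X, chr16:56682220-56682469, plus strand: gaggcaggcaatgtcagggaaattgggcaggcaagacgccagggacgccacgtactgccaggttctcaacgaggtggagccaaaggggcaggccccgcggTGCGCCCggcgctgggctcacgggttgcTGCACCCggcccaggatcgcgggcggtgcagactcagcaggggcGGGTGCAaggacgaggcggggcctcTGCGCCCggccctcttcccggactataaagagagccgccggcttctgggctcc
SLC30A1, chr1:211579162-211579411, minus strand: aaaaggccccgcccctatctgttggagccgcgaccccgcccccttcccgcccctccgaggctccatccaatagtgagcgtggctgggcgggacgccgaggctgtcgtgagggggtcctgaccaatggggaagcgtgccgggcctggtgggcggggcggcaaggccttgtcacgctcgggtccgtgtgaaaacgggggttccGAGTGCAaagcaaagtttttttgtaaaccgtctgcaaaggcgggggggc
SLC39A10, chr2:195656708-195656957, plus strand: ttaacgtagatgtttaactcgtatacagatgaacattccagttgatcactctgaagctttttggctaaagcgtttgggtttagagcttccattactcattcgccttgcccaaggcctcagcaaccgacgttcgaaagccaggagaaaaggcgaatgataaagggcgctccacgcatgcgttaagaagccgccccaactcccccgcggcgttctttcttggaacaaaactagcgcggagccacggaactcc
MT2A holds 7 matches, MT1X holds 4 and SLC30A1 holds 1, while the window of SLC39A10, the gene that rose, holds 0. Of all 27305 promoters in the RefSeq table, 24.7% hold at least 1 match, 0.366% at least 4 and 0.033% at least 7, so the single match of SLC30A1 is common and the 4 and 7 of the metallothioneins are rare. A match is a description of the letters and not evidence of binding. The RefSeq starts used for SLC39A10 and MT2A lie inside their GENCODE genes, as do their whole windows. The MT1X window runs past the GENCODE start of its gene. The SLC30A1 window lies upstream of the GENCODE start without reaching it, so the bases next to that start were not read. Each window shows only its RefSeq start, so the match counts are not a like-for-like comparison between the genes.

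The rest of both zinc transporter families showed no called change. Among the 7 tested exporters of the SLC30 family SLC30A1 alone was called, with a list median of -0.03, and among the 11 tested importers of the SLC39 family SLC39A10 alone was called, with a list median of 0.07. Copper genes moved little. SLC31A1 (CTR1), the main copper importer, was 125, 122 and 125 CPM with interferon and 152, 155 and 148 CPM with TEPA. The groups did not overlap, but the log2 fold change was small, 0.26 (SE 0.09), and its adjusted p was 0.194. Of 23 tested copper transporters and chaperones only COX19, an assembly factor of cytochrome c oxidase, was called (log2 fold change 0.47, SE 0.12, adjusted p = 0.0421), and it was lost in all 6 fits without 1 library. The list median was 0.02. With the GC trend removed, 6 of the 23 were called higher, against 7.51% of all genes, and none lower; SLC31A1 was among them (adjusted p = 6.68e-05).

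Iron and polyamine genes each held a clear riser. TFRC, the transferrin receptor that takes up iron, was 239, 254 and 283 CPM with interferon and 458, 464 and 457 CPM with TEPA. The libraries with TEPA were close together and well above the others, with the log2 fold change at 0.81 (SE 0.16, adjusted p = 0.0112) and a call in all 6 fits without 1 library. It was the 1 called gene of 17 tested iron genes, whose median was -0.02. HMOX1, the haem-degrading enzyme raised by oxidative stress, lay at 1.24, 0.976 and 1.34 CPM against 0.557, 0.942 and 1.13 CPM; its groups overlapped, and the 95% interval of its log2 fold change was -1.3 to 0.38. Of 21 tested genes of polyamine metabolism, 2 rose, against 0.757% of all genes, and none fell, with a median of 0.12. ODC1, which makes putrescine in the first step of polyamine synthesis, rose from 169, 168 and 169 CPM to 213, 216 and 205 CPM (log2 fold change 0.3, SE 0.06, adjusted p = 0.00592). SAT1, which acetylates polyamines for export and breakdown, rose from 5.24, 4.01 and 3.91 CPM to 8.53, 8.44 and 6.41 CPM (log2 fold change 0.81, SE 0.19, adjusted p = 0.0279), and this call was kept in 2 of the 6 fits.

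**Figure D2:**
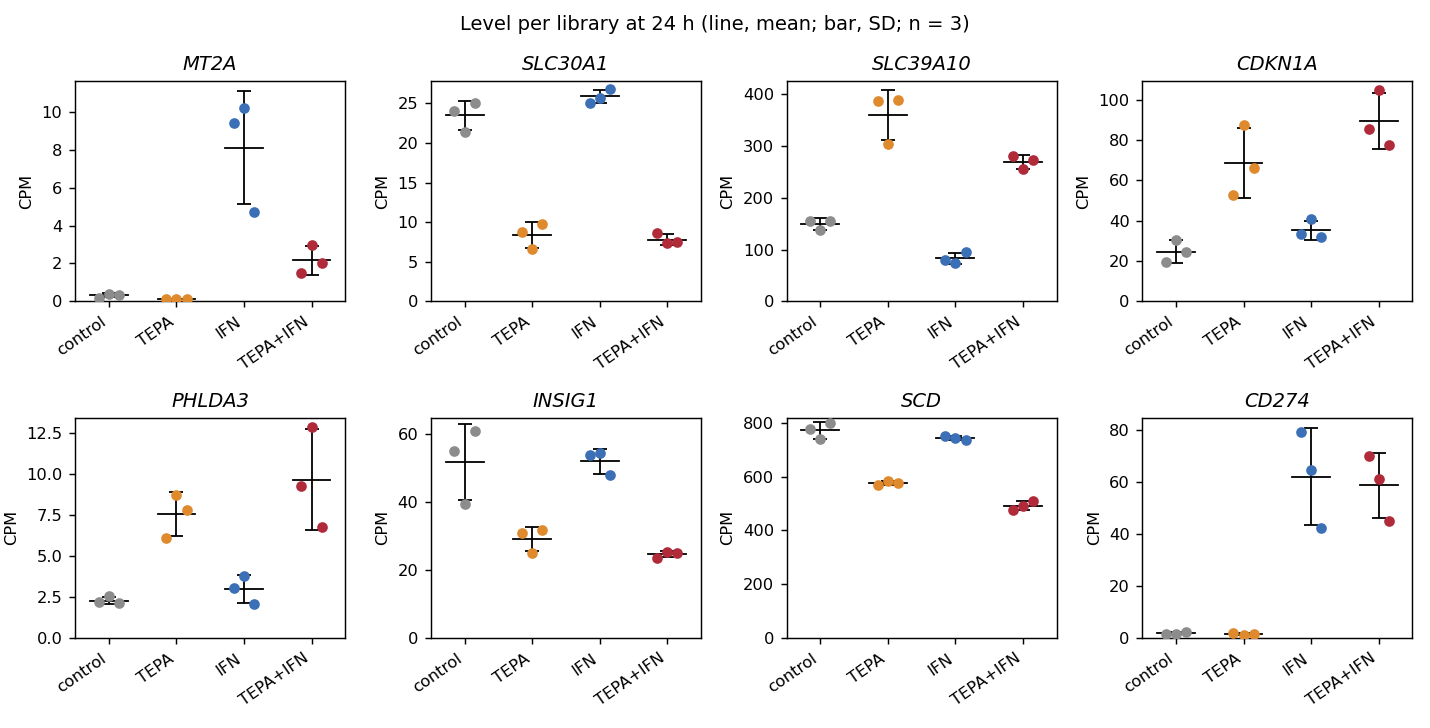
CPM of 8 genes (vertical axes, each starting at 0) in the 3 libraries of untreated, TEPA, interferon (IFN) and TEPA plus interferon cells at 24 h; points are libraries, the line is the mean and the bar the SD. MT2A and CD274 were higher in the groups given interferon, SLC30A1, SLC39A10, CDKN1A and PHLDA3 separated by TEPA on either background, and CD274 overlapped between the 2 interferon groups.

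Many p53 targets rose. Of 34 listed targets, all tested, 14 were called higher and none lower, where 0.757% of all genes were called higher, and the list median was 0.63 against -0.02 for all genes. CDKN1A (ENSG00000124762.13 at chr6:36676460-36687339, plus strand) encodes p21, the cyclin-dependent kinase inhibitor that arrests the cycle. It lay at 33.6, 40.7 and 31.8 CPM with interferon and at 85.5, 105 and 77.7 CPM with TEPA, with no overlap and the log2 fold change at 1.32 (SE 0.24, adjusted p = 0.00544). PHLDA3, which restrains AKT at the membrane, rose from 3.07, 3.8 and 2.09 CPM to 9.3, 12.9 and 6.78 CPM (log2 fold change 1.67, SE 0.25, adjusted p = 0.00123). CDKN1A and PHLDA3 were called in every fit that left out 1 library. An antisense transcript, DINOL, overlaps CDKN1A exons, and since the strand setting of the counting is not given, their reads cannot be told apart.

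Targets with several kinds of role were among the called ones. Those of death receptors included TNFRSF10B (DR5), from 58.8, 61.2 and 57.4 CPM to 111, 123 and 99.8 CPM (log2 fold change 0.89, SE 0.1, adjusted p = 0.00011), and EDA2R, a receptor of the same superfamily, with the log2 fold change at 1.22 (SE 0.19, adjusted p = 0.00186). DDB2, a DNA damage recognition protein of nucleotide excision repair, rose from 25.4, 29.4 and 23.5 CPM to 54.6, 63.1 and 53.2 CPM (log2 fold change 1.1, SE 0.19, adjusted p = 0.00429). The antiproliferative gene BTG2 (log2 fold change 1.19, SE 0.15) and SPATA18, which takes part in mitochondrial quality control (1.21, SE 0.15), rose to a like extent, with adjusted p of 0.000359 and 0.000225 by edgeR. The other called members, which the naming rule does not take, were the following 7, named after their values were seen: TP53I3, ZMAT3, AEN, POLH, PLK2, RPS27L and PPM1D, with log2 fold changes between 0.52 and 0.91.

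MDM2, the ubiquitin ligase that p53 induces and that degrades it, stood at the edge of the threshold. Its levels were 160, 159 and 185 CPM with interferon and 261, 254 and 255 CPM with TEPA, which did not overlap, and its log2 fold change was 0.59 (SE 0.15, adjusted p = 0.0502). FAS, another p53 target and also an interferon target, was 16.4, 13.8 and 11 CPM against 18.5, 17.8 and 16.1 CPM. The groups overlapped by 1 library and FAS was not called (log2 fold change 0.32, SE 0.22, adjusted p = 0.713). With the GC trend removed, where 7.51% of all genes were called higher, 24 of the 34 targets were called higher and none lower, and over the fits without 1 library the count was 10 to 15. In each library the median of the 34 genes, relative to the mean of the interferon libraries, was 0.00, 0.03 and -0.03 for interferon and 0.64, 0.62 and 0.47 with TEPA. Genes of mitosis (36 tested, median 0.04), of DNA replication and the G1/S step (44 tested, median -0.04) and of the DNA damage response machinery (23 tested, median -0.05) included no called gene. With the GC trend removed, 6 of the mitosis genes were called higher and 1 lower. In that fit 1 replication gene was called higher and none lower, and 2 damage response genes higher and 1 lower. Over all genes it called 7.51% higher and 5.73% lower.

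**Figure D3:**
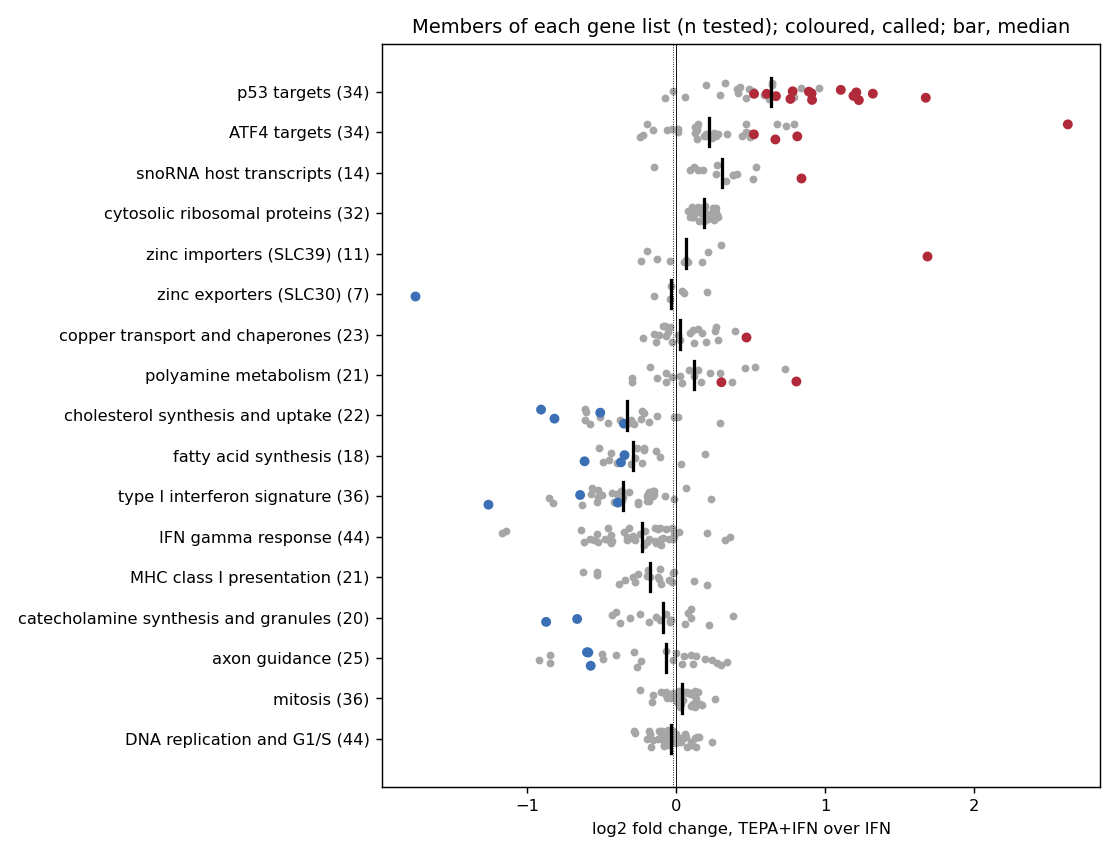
Log2 fold change of TEPA plus interferon over interferon (horizontal axis) for each tested member of 17 gene lists (rows, with the number tested); red and blue points are called higher and lower, black bars are list medians and the dotted line is the median of all genes. The p53 bar stands at 0.63, the cholesterol, fatty acid and type I interferon bars lie between -0.29 and -0.36, and the mitosis and DNA replication bars lie near 0.

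Part of the genes of cholesterol synthesis and uptake fell with TEPA. These genes are driven by SREBP2, a membrane-bound factor that INSIG1 holds in the endoplasmic reticulum when sterols are plentiful, and INSIG1 is itself an SREBP target. INSIG1 (ENSG00000186480.12 at chr7:155297776-155310235, plus strand) was 53.8, 54.5 and 47.9 CPM with interferon and 23.6, 25.4 and 25.2 CPM with TEPA (log2 fold change -1.1, SE 0.21, adjusted p = 0.00745), called in all 6 fits without 1 library. The groups did not overlap.

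Of 22 tested genes of cholesterol synthesis and uptake, 4 were called lower and none higher, where 1.15% of all genes were called lower, with a median of -0.33. Among the called members were IDI1, an isomerase of the mevalonate pathway (-0.51, SE 0.11), and FDFT1, which makes squalene (-0.35, SE 0.08), with adjusted p of 0.0224 and 0.0302 by edgeR. The count was 1 to 4 in the fits without 1 library and 13, all lower, with the GC trend removed, where 5.73% of all genes were called lower. ABCA1, the cholesterol efflux pump that LXR receptors induce, moved the other way. It had 17 reads over the interferon libraries and 57 with TEPA (log2 fold change 1.69, SE 0.38, adjusted p = 0.0259), and was called in 1 of the 6 fits.

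Fatty acid synthesis followed the same direction: 3 of 18 tested genes fell, against 1.15% of all genes, none rose, and the median was -0.29. SCD, the desaturase that makes oleate, fell from 750, 743 and 736 CPM to 476, 492 and 510 CPM (log2 fold change -0.62, SE 0.07, adjusted p = 0.00011). ACACA, which makes malonyl-CoA, fell from 257, 263 and 244 CPM to 199, 210 and 191 CPM (log2 fold change -0.37, SE 0.08, adjusted p = 0.0223). SCD and ACACA were called in all 6 fits without 1 library, and the third, SCD5 (log2 fold change -0.35, SE 0.08, adjusted p = 0.0234), in 2. With the GC trend removed, 12 of the 18 were called lower, against 5.73% of all genes, and 1 higher.

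No gene of the interferon gamma response was called. CD274 was 79.4, 64.6 and 42.3 CPM with interferon and 69.9, 61.3 and 45.2 CPM with TEPA added, against 1.42 to 2.18 CPM in untreated cells. The groups overlapped fully; the log2 fold change was -0.1 (SE 0.27, 95% interval -0.68 to 0.48, adjusted p = 1 by edgeR). IRF1, the first-wave interferon gamma factor, was 420, 404 and 211 CPM against 375, 410 and 278 CPM (log2 fold change 0.02, SE 0.23, 95% interval -0.46 to 0.5). The third interferon library was the lowest of its group for IRF1 and CD274. Without the first interferon library the log2 fold changes were 0.13 for CD274 and 0.19 for IRF1, and without the third they were -0.3 and -0.23. None of the 44 tested genes of the response passed the test, 4 had a positive log2 fold change, and the median was -0.23; B2M, TAP1 and the other class I presentation genes (21 tested, median -0.17) and the class II genes (13 tested, median -0.18) had no called member either. HLA genes are near-identical to one another, so their single values are uncertain.

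A part of the interferon-stimulated genes was lower with TEPA. Of 36 tested genes of the type I interferon signature, which interferon gamma also raises in part, 3 were called lower and none higher. Over all genes 1.15% were called lower and 0.757% higher. In the signature 34 genes had a negative log2 fold change, with a median of -0.36. MX1, an antiviral GTPase, was 58.8, 41.9 and 25.4 CPM with interferon and 21.2, 19.9 and 12.3 CPM with TEPA (log2 fold change -1.26, SE 0.32, adjusted p = 0.0434). SAMD9, an antiviral translation inhibitor, was 844, 756 and 782 CPM against 530, 471 and 546 CPM (log2 fold change -0.64, SE 0.16, adjusted p = 0.0492). STAT2, a subunit of the interferon-stimulated gene factor, was 767, 782 and 613 CPM against 546, 622 and 504 CPM (log2 fold change -0.39, SE 0.09, adjusted p = 0.029); it is the 1 called gene whose groups overlap. MX1 was called in 1, SAMD9 in none and STAT2 in 2 of the 6 fits without 1 library, and at most 2 members were called in any of these fits. With the GC trend removed, where 5.73% of all genes were called lower and 7.51% higher, 9 of the 36 type I genes were called lower and none higher, and 8 of the 44 interferon gamma genes were called lower and 1 higher.

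The medians by library show how much of this rests on the spread inside a group. Relative to the mean of the interferon libraries, the type I signature stood at 0.22, 0.08 and -0.33 in the 3 interferon libraries and at -0.24, -0.15 and -0.54 with TEPA, so the third interferon library lay below 2 of the libraries with TEPA. The interferon gamma response stood at 0.25, 0.12 and -0.37 against -0.13, -0.04 and -0.37. The sterol genes did not show this spread, with 0.02, -0.01 and -0.04 against -0.4, -0.37 and -0.29. Libraries also differ in how GC-rich genes stand against GC-poor ones. The difference in log2 level, relative to all libraries, averaged 0.46 ± 0.53 (SD, n = 3) with interferon and 0.43 ± 0.4 (SD, n = 3) with TEPA added, and the third interferon library was the lowest of its group at -0.123. Its part in the lower interferon-stimulated genes was not tested beyond the fits that left it out.

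**Figure D4:**
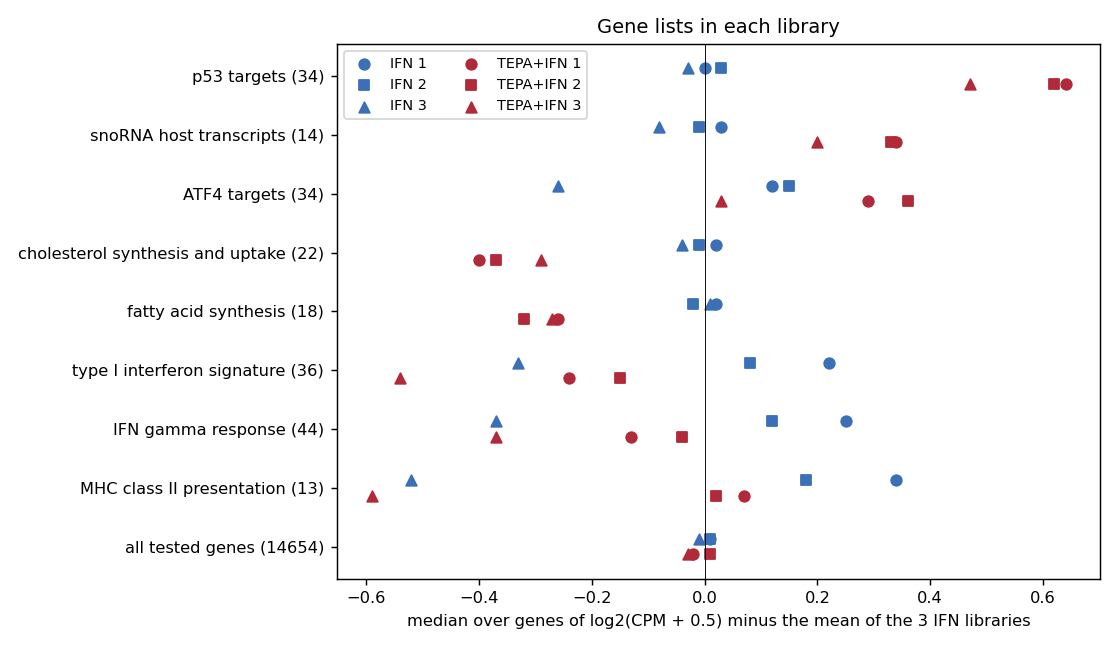
Median over the genes of each list of log2(CPM + 0.5) minus the mean of the 3 interferon libraries (horizontal axis), for each of the 6 libraries (blue, interferon; red, TEPA plus interferon; the marker shape gives the replicate number). The p53 and sterol lists separate the groups, with TEPA libraries at 0.47 to 0.64 and at -0.4 to -0.29, while the interferon lists overlap and the third library of each group is the lowest.

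The checkpoint ligands, CD274 included, held 1 called gene of 15 tested, with a median of -0.15. FGL1, a secreted ligand of the inhibitory receptor LAG3, was 2.41, 2.49 and 2.53 CPM with interferon and 5.68, 5.05 and 5.25 CPM with TEPA. The groups did not overlap, the log2 fold change was 1.08 (SE 0.2, adjusted p = 0.0063), and it was called in all 6 fits without 1 library. Without interferon FGL1 rose by a similar amount, 1.21 (adjusted p = 0.00363 by edgeR).

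Genes of the integrated stress response, driven by the factor ATF4, rose in part. Of 34 tested ATF4 targets 4 rose, against 0.757% of all genes, and none fell, with 28 positive log2 fold changes and a median of 0.22. PSPH, the last enzyme of serine synthesis, rose from 36.7, 37.3 and 36 CPM to 53.7, 55.1 and 51.3 CPM (log2 fold change 0.52, SE 0.08, adjusted p = 0.00182). STC2, a secreted glycoprotein, rose from 12.6, 12.5 and 8.69 CPM to 22.3, 22.9 and 14.9 CPM (log2 fold change 0.81, SE 0.16, adjusted p = 0.00912). ALDH1L2, a mitochondrial folate enzyme, and NUPR1, a stress-induced chromatin protein, were also called, with log2 fold changes of 0.66 (SE 0.16) and 2.63 (SE 0.62) and adjusted p of 0.0393 and 0.0302 by edgeR; NUPR1 was at or below 0.538 CPM in every one of the 6 libraries. The count ranged from 1 to 4 without 1 library and was 14 with the GC trend removed, where 7.51% of all genes were called higher. Genes that respond to oxidative stress through NRF2 (27 tested, median -0.05) had no called member.

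The neuronal side of the cells changed gene by gene. Of 24 tested genes of adrenergic identity 1 rose, while TFAP2B (-0.43, SE 0.09), EYA1 (-0.39, SE 0.08) and the nicotinic receptor subunit CHRNA3 (-0.35, SE 0.07) fell, with adjusted p of 0.0171, 0.017 and 0.00745 by edgeR. Over all genes 0.757% were called higher and 1.15% lower, and the list median was 0.01. SLC18A1, which loads catecholamines into vesicles, fell from 68.1, 73.7 and 76.2 CPM to 32.7, 39.3 and 48.9 CPM (log2 fold change -0.87, SE 0.17, adjusted p = 0.0102). CHGB, a granule protein, fell from 420, 343 and 426 CPM to 268, 212 and 282 CPM (log2 fold change -0.66, SE 0.14, adjusted p = 0.0139). These were the 2 called of 20 tested genes of catecholamine synthesis and granules, against 1.15% of all genes called lower. The list median was -0.09.

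Growth and guidance genes of neurites were mostly on the falling side where they were called. GAP43, the growth cone protein, fell from 60.2, 63.2 and 65.6 CPM to 46.1, 45.4 and 54.8 CPM (log2 fold change -0.39, SE 0.07, adjusted p = 0.0051). DCX, the microtubule protein of migrating neuroblasts, fell by 0.7 on the log2 scale (SE 0.17, adjusted p = 0.0407 by edgeR) and was lost in every fit without 1 library. The adhesion molecule NCAM1 rose by 0.23 (SE 0.06, adjusted p = 0.0402), which makes 1 up and 2 down of 23 genes of neuronal structure (median -0.11). Over all genes 0.757% were called higher and 1.15% lower. Among 25 tested axon guidance genes 3 fell, against 1.15% of all genes, and none rose, with a median of -0.07. They were the semaphorins SEMA6D and SEMA6A, with log2 fold changes of -0.6 and -0.57 (SE 0.09 each), and the ephrin EFNB2 (-0.59, SE 0.11), all called in the 6 fits without 1 library. The alpha-2A adrenergic receptor ADRA2A rose from 9.44, 9.76 and 7.66 CPM to 20.9, 21.5 and 20.1 CPM (log2 fold change 1.2, SE 0.16, adjusted p = 0.000594).

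The largest falls by the naming rule lay outside the lists in part. LYPD1, a GPI-anchored modulator of nicotinic receptors, fell from 1.9, 1.88 and 1.25 CPM to 0.139, 0.404 and 0.5 CPM (log2 fold change -2.26, SE 0.41, adjusted p = 0.00539). SYT2, a calcium sensor of synaptic vesicles, fell from 4.24, 3.83 and 4.91 CPM to 1.39, 1.35 and 1.84 CPM (log2 fold change -1.52, SE 0.26, adjusted p = 0.00369). Both overlap a gene on the other strand, GPR39 and PPP1R12B, which were at -0.24 (SE 0.48) and -0.03 (SE 0.1) and not called. CSRP1, CHL1, PCDH15, CES4A, DGKB and HS3ST2 complete the 12 largest falls, with log2 fold changes between -1.38 and -1.17; CSRP1 and CES4A were lost in all 6 fits without 1 library, DGKB was called in all 6, and HS3ST2 lost its call with the GC trend removed (adjusted p = 0.0818 by edgeR). On the rising side SCN4B, a sodium channel subunit, FNDC5, the precursor of irisin, and FUT1, a fucosyltransferase, had log2 fold changes of 1.43 (SE 0.3), 1.27 (SE 0.29) and 1.2 (SE 0.24), and were called in 3, 2 and 3 of those fits.

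The effect of TEPA without interferon was measured in libraries that the comparison above uses only for the filter, the scaling and the spread. There 155 genes were called (1.06%), 76 higher (0.519%) and 79 lower (0.539%), and 0 when the spread was estimated from those 6 libraries alone, where edgeR gave 1409 genes with an unadjusted p under 0.05. With the replicate number as a block, that 6-library fit called 247, though the numbers are not known to mark pairs. Of the 279 genes called with interferon, 276 (98.9%) had the same sign without it, against 9888 of all 14654 genes (67.5%), and 94 were called the same way in both, which is 33.7% of the 279; none was called the other way. The 3 others were SLFN5, which had no read in the untreated or TEPA libraries, MX1 and STAT2, named here after their values were seen. Across all genes the log2 fold changes with and without interferon had a Pearson correlation of 0.30; genes are not independent replicates. SLC39A10 rose from 156, 137 and 156 CPM to 387, 304 and 390 CPM without interferon (log2 fold change 1.25, SE 0.18, adjusted p = 0.00131). SLC30A1 fell from 24, 21.4 and 25 CPM to 8.8, 6.59 and 9.79 CPM (log2 fold change -1.5, SE 0.17, adjusted p = 0.000207). CDKN1A rose by 1.45 (SE 0.24, adjusted p = 0.00388), and 13 of the 34 p53 targets were called higher, with a list median of 0.75. INSIG1 missed the threshold without interferon (log2 fold change -0.85, SE 0.21, adjusted p = 0.0528 by edgeR). Of the 22 tested genes of cholesterol synthesis and uptake, 3 were called lower and none higher, with a list median of -0.2.

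**Figure D5:**
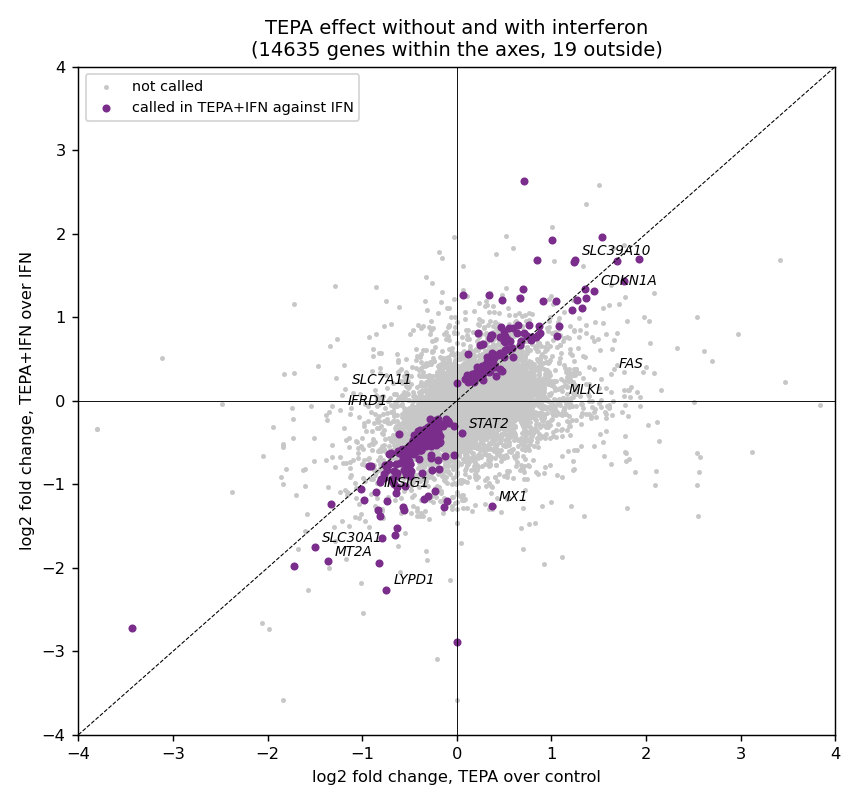
Log2 fold change of TEPA over untreated cells (horizontal axis) against that of TEPA plus interferon over interferon (vertical axis) for the 14635 genes within 4 log2 units of 0 on both axes, with the line of equality dashed. Purple points are the genes called with interferon; most lie in the lower left and upper right, while FAS and MLKL lie far to the right near 0 on the vertical axis.

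MT2A was higher where interferon was given. It was 0.198, 0.406 and 0.344 CPM in untreated cells and 0.142, 0.113 and 0.114 CPM with TEPA alone, so its fall was seen from a far higher base when interferon was present. Without interferon its log2 fold change was -1.37 (SE 0.7, adjusted p = 0.572 by edgeR).

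Whether TEPA acted differently with interferon was tested as an interaction, and edgeR called 0 of 14654 genes. DESeq2 and limma-voom also called 0, 205 genes (1.4%) had an unadjusted p under 0.05, and 26 of the 279 called genes were among them (9.32%). The 279 were chosen on a difference that is itself a part of the interaction. That choice raises their share, so the 2 percentages cannot be compared as a result. The fit with the GC trend removed called 6. The interval for the difference was wide: for SLC39A10 it was -0.09 to 0.96 on the log2 scale around 0.43, and for CDKN1A -0.83 to 0.58 around -0.13. FAS had the lowest unadjusted p among the genes of the naming rule. It rose from 1.58, 1.89 and 1.92 CPM to 6.62, 4.01 and 6.3 CPM with TEPA alone (log2 fold change 1.63, adjusted p = 0.00131), while with interferon, from a mean of 13.7 ± 2.68 CPM (SD, n = 3), its log2 fold change was 0.32. The difference was -1.31 (SE 0.32, unadjusted p = 0.000671, adjusted p = 1 by edgeR's quasi-likelihood test).

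Among the lists, the type I interferon signature had 9 of 36 genes with an unadjusted interaction p under 0.05 and the ATF4 targets 8 of 34, against 1.4% of all genes, and none of these passed adjustment. The type I list had a median of 0.25 with TEPA alone and -0.36 with interferon, and the ATF4 list 0.05 and 0.22. Members of the type I list differed widely in level without interferon. In untreated cells MX1 lay at 0.0659, 0.203 and 0.143 CPM, near the floor, and SAMD9 at 28.9, 30.7 and 30.2 CPM. The part of such low counts in the 0.25 and in the 9 genes was not tested. SLC7A11, the cystine transporter and an ATF4 target, changed by -1.19 on the log2 scale (SE 0.22, adjusted p = 0.00917 by edgeR) with TEPA alone and 0.14 (SE 0.21) with interferon. The 6 interaction calls of the fit with the GC trend removed included SLC7A11 (adjusted p = 0.015 by edgeR), IFRD1, NFYA, SAMD9 and SLC39A10; SLC7A11, IFRD1 and NFYA are named after their values were seen.

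Against the second chelator on the same interferon background, TEPA plus interferon differed from DC plus interferon in 398 genes (2.72%), 158 higher (1.08%) and 240 lower (1.64%). This comparison uses the same 3 TEPA plus interferon libraries as the first one, and the doses are not known, so the differences are between these cells as treated and not between matched doses. The zinc transporters SLC39A10 and SLC30A1 differed here too. SLC39A10 was 96.5, 103 and 94.8 CPM with DC and interferon, and TEPA was higher by 1.43 (SE 0.18, adjusted p = 0.000172 by edgeR). SLC30A1 was 25.1, 25.3 and 22.8 CPM, and TEPA was lower with the log2 fold change at -1.67 (SE 0.18, adjusted p = 2.65e-05). CDKN1A was 28.4, 32.9 and 41 CPM, and TEPA was higher by 1.36 (SE 0.24, adjusted p = 0.00347).

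Not every gene of the comparison separated the 2 chelators. TFRC was 380, 402 and 368 CPM with DC and interferon, and its log2 fold change between the chelators was 0.23 (SE 0.16, adjusted p = 0.625). MX1 was 34.4, 23.6 and 15.8 CPM, with -0.49 (SE 0.31, adjusted p = 0.576), and CD274 was 72.8, 58.5 and 35.1 CPM, with 0.05 (SE 0.27, adjusted p = 0.955). The metallothionein MT2A was 4.4, 3.82 and 4.84 CPM with DC and interferon and was not called, with -1.04 (SE 0.45, adjusted p = 0.302 by edgeR). NQO1, a quinone reductase and NRF2 target, was lower with TEPA than with DC. It was 194, 187 and 184 CPM with DC and interferon and 55.3, 51.5 and 67.5 CPM with TEPA and interferon (log2 fold change -1.72, SE 0.15, adjusted p = 1.25e-05), while interferon alone gave 70.8, 74.1 and 85.1 CPM. LIF, a cytokine of the interleukin 6 family, was 0.57, 0.902 and 1.01 CPM with DC and 2.33, 4.04 and 2.69 CPM with TEPA (log2 fold change 1.82, SE 0.45, adjusted p = 0.0352).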

How the data were processed

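Poly(A) RNA of SH-SY5Y cells was sequenced after stranded TruSeq mRNA preparation, per the labels' protocols. The authors deposited raw counts of reads per gene symbol in 1 table of 26485 genes and 24 libraries; the 24 single-library lists hold the same values. STAR 2.5a, RSEM 1.2.31 and hg38 are named in the submitters' processing notes; the annotation release, the strand setting and any filter are not given in the sources used here. Counts were tested with edgeR 4.0.16 (quasi-likelihood, TMM, filterByExpr with a minimum count of 10, R 4.3.3) over all 24 libraries in 8 groups with 1 mean per group, which leaves 16 residual degrees of freedom, and adjusted over all 14654 tested genes. CPM use TMM-scaled library sizes. The SE is the absolute log2 fold change divided by the square root of edgeR's F statistic. Intervals are at the 95% level and use the t distribution with 16 degrees of freedom, so they can differ slightly from the p-values. The code was tested on simulated data. Alternatives were DESeq2 1.42.0, limma-voom 3.58.1, other filters, fewer libraries, a replicate block, and removal of a spline in GC content fitted to each library (GC known for 93.8% of tested genes). Gene positions and GC content come from GENCODE 29.

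Members and gene lists were chosen with earlier results of these data known. Genes to name were the 12 strongest rises and 12 strongest falls that passed the test, averaged 1 CPM or more, had a coding-style symbol and did not overlap between the groups, 5 and 5 such genes for DC plus interferon and for the interaction (which had no call), up to 4 called genes per list (or the 2 most abundant), and 18 fixed genes. Same-numbered TEPA and untreated libraries correlated at 0.363, 0.575 and 0.232 in their deviations from their group means. The third TEPA library correlated better with the first untreated library (0.267). The labels do not say that a number marks a shared culture. The block moved the count for TEPA against untreated cells by less than 1.5 times over all libraries but from 0 to 247 over those 6 alone. Some genes that the rule takes are not reported here.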

Additional observations from a re-analysis of the deposited data

How the results depend on the processing

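Of 1652 log2 fold changes of 111 genes under the alternatives, 1356 kept their sign and their side of the threshold, 192 lost the call and 79 gained one. The sign turned in 25, over 13 genes, and none of these was called in either fit. Without 1 library the values ran from -0.3 to 0.13 for CD274, -0.23 to 0.19 for IRF1, -0.19 to 0.06 for STAT3, -0.08 to 0.17 for RELA, -0.09 to 0.01 for B2M, -0.06 to 0.01 for CTSL and -0.11 to 0 for CENPF. They ran from -0.15 to 0.02 for MCM7, -0.12 to 0.01 for XRCC5, -0.04 to 0 for FTH1, -0.2 to 0.03 for LDHA, -0.03 to 0.07 for ISL1 and -0.35 to 0.26 for EPCAM, which was also 0.02 with limma-voom. The 279 calls of TEPA plus interferon against interferon became 583 with DESeq2, 183 with no filter, 121 with only the groups compared, 1941 with the GC trend removed, and 124 to 251 without 1 library, lowest without the second TEPA plus interferon library. The 155 calls of TEPA against untreated cells became 374 with DESeq2, 86 with no filter, 0 with only the groups compared, 1262 with the GC trend removed and 61 to 127 without 1 library. The 398 calls against DC plus interferon became 731, 265, 713, 2019 and 181 to 373 under the same settings. The 0 interaction calls stayed 0 without any 1 library, with DESeq2, limma-voom and both other filters, and became 6 with the GC trend removed. Same-numbered libraries with and without TEPA on interferon correlated at 0.068, 0.538 and 0.559 in their deviations, and the first TEPA plus interferon library correlated better with the third interferon library (0.131), so the numbers were not taken as pairs. With the replicate block the 279 calls became 428 over all libraries, 2162 with the GC trend removed as well and 2777 with only the groups compared. For TEPA against untreated cells the block gave 231, 1475 and 247 in the same order, for DC plus interferon 493, 2286 and 246, and for the interaction 2, 18 and 1. The cause of these shifts was not tested. Where 1 library is left out, the lone pair of its group is assumed to vary like the other groups. Genes under about 1 CPM carry few reads, and a change in them was often not detectable at this depth.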

Other observations

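Several lists that the comparisons above do not describe leaned one way with few or no calls. All 32 cytosolic ribosomal protein genes had a positive log2 fold change with TEPA on interferon, with a median of 0.19 and none called; the same 32 were positive without interferon, with a median of 0.23. Their summed level was 13600 to 16100 CPM in the interferon libraries and 16200 to 19100 CPM with TEPA, which narrowly did not overlap. Their medians by library, relative to the mean of the interferon libraries, did overlap, at 0.08, 0.09 and -0.17 against 0.2, 0.31 and 0.05 with TEPA. The groups did not overlap in 13 of the 32 genes, against 22.8% of all genes. RPL6, a protein of the large subunit, was 965, 921 and 941 CPM against 1160, 1150 and 1090 CPM (log2 fold change 0.24, SE 0.06, adjusted p = 0.0531 by edgeR's quasi-likelihood test). Of 14 transcripts that host small nucleolar RNAs, 13 were positive, with a median of 0.31 and 1 call, EPB41L4A-AS1, at 9.03, 6.33 and 6.07 CPM against 14.2, 14.4 and 10.3 CPM (log2 fold change 0.84, SE 0.16, adjusted p = 0.00905 by edgeR). Without interferon the host list had a median of 0.09.

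Other lists leaned down. Of 24 tested heat shock genes 22 did not have a positive log2 fold change, with a median of -0.12, and the HSP90 co-chaperone AHSA1 was the 1 called, at 230, 218 and 243 CPM against 190, 185 and 208 CPM (log2 fold change -0.27, SE 0.06, adjusted p = 0.0335 by edgeR). Genes of hypoxia and glycolysis had 5 positive values of 36 and a median of -0.15 with no call, and 9 called lower with the GC trend removed, where 5.73% of all genes were called lower. Respiratory chain subunits (36 tested, median 0.05) and autophagy and lysosome genes (34 tested, median -0.02) held no called gene.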
